A study of Drosophila melanogaster with 6 samples.

Results

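Strong ROW peaks without BEAF-32 are the sites where the ROW antibody gave a clear peak in Drosophila melanogaster S2 cells and the BEAF-32 antibody gave none at or near the same place. Members were chosen by measured values: a ROW fold enrichment over local background of at least 6, no overlap with a BEAF-32 peak, and no BEAF-32 summit within 1000 bp, on the arms 2L, 3L and 3R. The rule found 625 peaks. They are 34.8% (95% Wilson interval 32.6 to 37.0) of the 1797 ROW peaks of at least 6-fold on these arms, and 625 of 8788 ROW peaks in the whole list. Of the other strong peaks, 1151 overlapped a BEAF-32 peak by at least 1 bp and serve as the comparison group. The remaining 21 did not overlap one but had a BEAF-32 summit within 1000 bp, and they belong to neither group.

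The experiment was chromatin immunoprecipitation with sequencing on S2 cells, a macrophage-like line derived from embryos, grown in Schneider's medium with serum and antibiotics. There were 6 samples, 3 with a ROW antibody and 3 with a BEAF-32 antibody, all titled con, and no other treatment or genotype is named. The 3 BEAF-32 samples were grouped by title, since their antibody labels differ from one another (BEAF-32, BEAF-33 and BEAF-34). Each antibody has 1 deposited peak list for its 3 samples, so there is no spread between samples and nothing below carries a test of a difference. Intervals of shares and medians cover counting error over peaks only, and neighbouring peaks are not independent of each other.

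ROW carries zinc fingers and AT-hooks, short segments that contact AT-rich DNA, and is found in a protein complex with the heterochromatin protein 1 paralogue HP1c. BEAF-32 is a fly insulator protein that binds clusters of the motif CGATA, often close to the promoters of housekeeping genes and at borders between chromatin domains. A ROW peak without BEAF-32 is therefore a place where ROW was recovered away from the sites of that insulator protein, as far as both lists show it. BEAF-32 signal below the threshold of its peak list would not be seen, since the lists hold no values between peaks. Genes and sequences under the peaks are not reported here, and positions are given on build dm3, counted from 1.

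Members thinned out among stronger ROW peaks. They were 214 of 495 ROW peaks of 6 to 8-fold (43.2%, 38.9 to 47.6) and 254 of 670 of 8 to 12-fold (37.9%, 34.3 to 41.6). At 12 to 16-fold they were 96 of 374 (25.7%, 21.5 to 30.3), and at 16-fold and over 61 of 258 (23.6%, 18.9 to 29.2). Enrichment helped to choose the members, so this is a description of the set. Members ran from 6.002 to 25.3-fold with a median of 9.24, and the overlapping peaks had a median of 10.9. Because the groups differ in strength, most values below are also given within these 4 classes of enrichment.

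The list allowed the fragments behind each peak to be recovered. The fold enrichment and the −log10 p of a peak together fix the number of fragments stacked at its summit (the pileup) and the local background. That pileup came out within 0.01 of a whole number for all 8788 ROW peaks. Members stood on a median of 385 fragments (141 to 4029) over a median background of 39.2 fragments, and overlapping peaks on a median of 521 over 43.4. In the class of 6 to 8-fold the medians were 247 and 259 fragments, and at 16-fold and over they were 871 and 910. The lowest background in the ROW list was 22.5 fragments. It applied to 109 of 625 members (17.4%, 14.7 to 20.6) and to 118 of 1151 overlapping peaks (10.3%, 8.63 to 12.1). By class the shares were 23.4% of members and 17.8% of overlapping peaks at 6 to 8-fold, and 20.1% and 10.8% at 8 to 12-fold. They were 6.25% and 8.36% at 12 to 16-fold, where the order turned, and 3.28% and 1.04% at 16-fold and over, where each group held 2 such peaks.

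**Figure D1:**
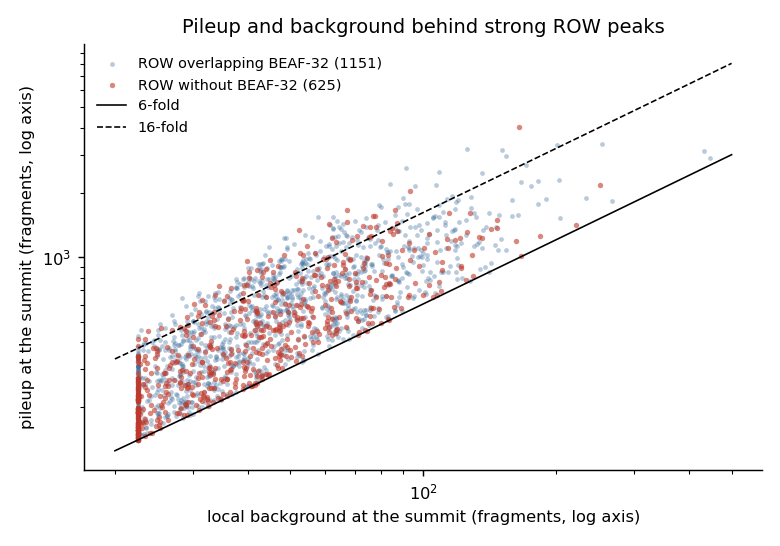
Pileup against local background at the summit, both in fragments on log axes, for the 625 members and the 1151 overlapping peaks, with lines at 6-fold and 16-fold. Members and overlapping peaks fill the same area, and the column at the left edge holds the peaks at the lowest background of 22.5 fragments.

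The 10 strongest members are given one by one. The strongest lay on 3R from 27413932 to 27414556, a peak of 625 bp with 25.29-fold enrichment from 1344 fragments (exact Poisson interval 1273 to 1418) over a background of 52.2. BEAF-32 came no closer to it than a summit at 7597 bp. The next, on 3R from 24983233 to 24983956, reached 24.36-fold with the largest pileup of all members, 4029 fragments (3906 to 4155) over 164.4, and a BEAF-32 summit 4411 bp away. The third, on 3R from 7052061 to 7052685, reached 24.28-fold from 1652 fragments, 4931 bp from BEAF-32. All 10 were of similar size, between 558 and 724 bp, although their pileups ran from 736 to 4029 fragments and their enrichment from 20.8 to 25.3-fold. Their median width of 625.5 bp was close to the 637 bp of all members, whose widths ran from 390 to 2504 bp. The Poisson intervals of pileups treat fragments as independent counts and cover no spread between samples.

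Another 5 of the 10 stood 2495 to 6869 bp from a BEAF-32 summit. A peak of 23.58-fold covered 10630791 to 10631416 of 3L, and one of 22.96-fold covered 8205017 to 8205574 of 2L. On 3R, peaks of 21.47 and 21.37-fold covered 14045818 to 14046439 and 7503695 to 7504302. The fifth, of 21.16-fold, covered 8714076 to 8714716 of 3L. The last 2 stood far from BEAF-32. The peak on 3L from 14265394 to 14266055 (20.78-fold, 736 fragments) was 51657 bp from the nearest BEAF-32 summit and 43561 bp from any other ROW summit. The peak on 3R from 3075024 to 3075663 (20.77-fold, 1025 fragments) was 62711 bp from BEAF-32 and had a weaker ROW summit, of 2.53-fold, at 2519 bp. Strong ROW sites without BEAF-32 thus occurred both beside BEAF-32 sites and in stretches without any.

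Members were narrower than overlapping peaks of like strength. Their median width was 637 bp (order-statistic interval 626 to 653, interquartile range 560 to 840), against 733 bp (718 to 750, interquartile range 633 to 944.5). The difference was seen in each class of enrichment. The medians were 621.5 against 731 bp at 6 to 8-fold and 642 against 776.5 bp at 8 to 12-fold. At 12 to 16-fold they were 679.5 against 752 bp, and at 16-fold and over 626 against 684 bp. Overlap is easier for a wide peak, so the rule itself favours narrow members, and how much of the difference this accounts for was not tested. Counting as overlap only at least 50% of the ROW peak left 641 against 706 bp.

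The spread of width shrank as peaks grew stronger. Members of 6 to 8-fold had an interquartile range of 515 to 898 bp, and those of 16-fold and over one of 602 to 670 bp. Among the overlapping peaks of 16-fold and over it was 646 to 765 bp. Widths over 1000 bp were found in 96 members (15.4%, 12.7 to 18.4) and in 233 overlapping peaks (20.2%, 18.0 to 22.7). The widest members lay on 2L from 19423549 to 19426052 (2504 bp, 8.97-fold), on 3L from 11284571 to 11286737 (2167 bp, 8.92-fold) and on 2L from 15498890 to 15500909 (2020 bp, 7.62-fold). The narrowest measured 390 bp (3R from 11727123 to 11727512, 6.20-fold), 393 bp (2L from 2202216 to 2202608, 6.53-fold) and 396 bp (3L from 7776496 to 7776891, 6.42-fold). Across members width hardly followed enrichment (Spearman's rho 0.09 over 625 peaks of 1 list).

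Summits sat close to the middle of the peak. The distance from summit to centre had a median of 40.5 bp in members and 49.5 bp in overlapping peaks. It was at most 50 bp in 344 of 625 members (55.0%, 51.1 to 58.9) and in 579 of 1151 overlapping peaks (50.3%, 47.4 to 53.2). In peaks of 16-fold and over the medians were 24 and 27.5 bp, so the strongest sites of both groups were compact and symmetric.

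**Figure D2:**
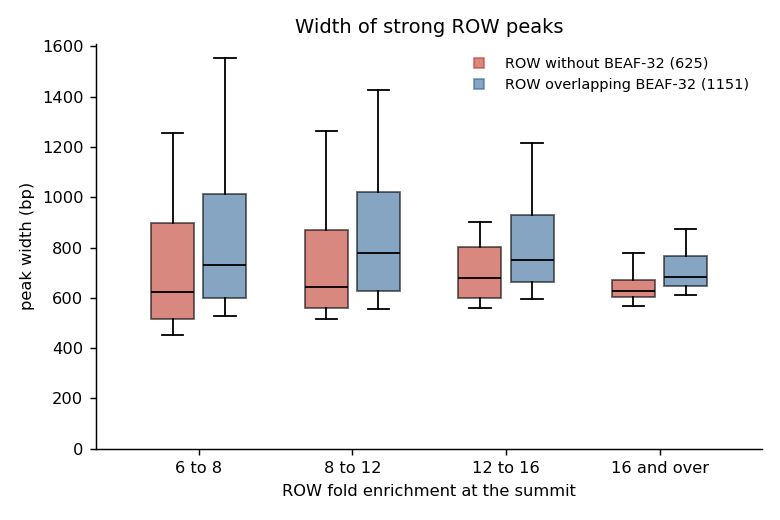
Peak width in bp (boxes from the lower to the upper quartile with the median, whiskers from the 10th to the 90th percentile) by class of ROW fold enrichment, for the 625 members and the 1151 overlapping peaks. The median of the members is lower in all 4 classes, by 58 to 134.5 bp, and the boxes of both groups overlap in each class.

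Other ROW peaks were common beside the members. The nearest other ROW summit lay at a median of 3667 bp (3278 to 4013, interquartile range 1952 to 6638), against 4864 bp (4485 to 5209) for the overlapping peaks. A ROW summit stood within 5 kb of 389 of 625 members (62.2%, 58.4 to 66.0) and of 590 of 1151 overlapping peaks (51.3%, 48.4 to 54.1). Within 10 kb the shares no longer differed in that direction, at 85.6% (82.6 to 88.1) and 87.1% (85.1 to 89.0). At longer range members were the more isolated group: 41 of 625 members (6.56%, 4.87 to 8.78) and 41 of 1151 overlapping peaks (3.56%, 2.64 to 4.80) had no ROW summit within 20 kb. At 12 to 16-fold these shares were 13.5% and 4.73%, while at 16-fold and over they were 4.92% and 6.74%. Among the 2108 weaker ROW peaks without BEAF-32, 64.6% (62.5 to 66.6) had a ROW summit within 5 kb, a share close to that of members. ROW summits within 5 kb on both sides were found for 75 of 625 members and 103 of 1151 overlapping peaks.

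Much of the difference within 5 kb went with strength. At 8 to 12-fold the shares were 61.4% of members and 60.8% of overlapping peaks, and at 12 to 16-fold 47.9% and 42.9%, with intervals that overlap widely. At 6 to 8-fold they were 75.7% (69.5 to 81.0) and 68.7% (63.0 to 73.9). The groups stood apart at 16-fold and over, where 25 of 61 members (41.0%, 29.5 to 53.5) and 35 of 193 overlapping peaks (18.1%, 13.3 to 24.2) had a ROW summit within 5 kb. After weighting the overlapping peaks to the members' classes, their median distance was 4186 bp and their share 56.6%. The neighbours concerned were mostly weak: when neighbours had to reach 4-fold, the median distances were 7023 bp for members and 6989 bp for overlapping peaks.

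The distance of 5 kb also marked a step in the list itself. Around all 254 peaks of 16-fold and over in both groups, there were 4.72 other ROW summits per 100 peaks at 3 to 4 kb and 9.06 at 4 to 5 kb. At 5 to 6 kb there were 24.4, and at 6 to 7 kb 26.8. The ROW peaks at 1 to 5 kb had a median background of 60.5 fragments, and 1 of 66 had the lowest level. Those at 5 to 9 kb had a median background of 29.1 fragments, and 74 of 247 were at the lowest level. Peaks near a very strong peak were therefore measured against a raised background, and the part of this in the number of close neighbours was not tested.

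**Figure D3:**
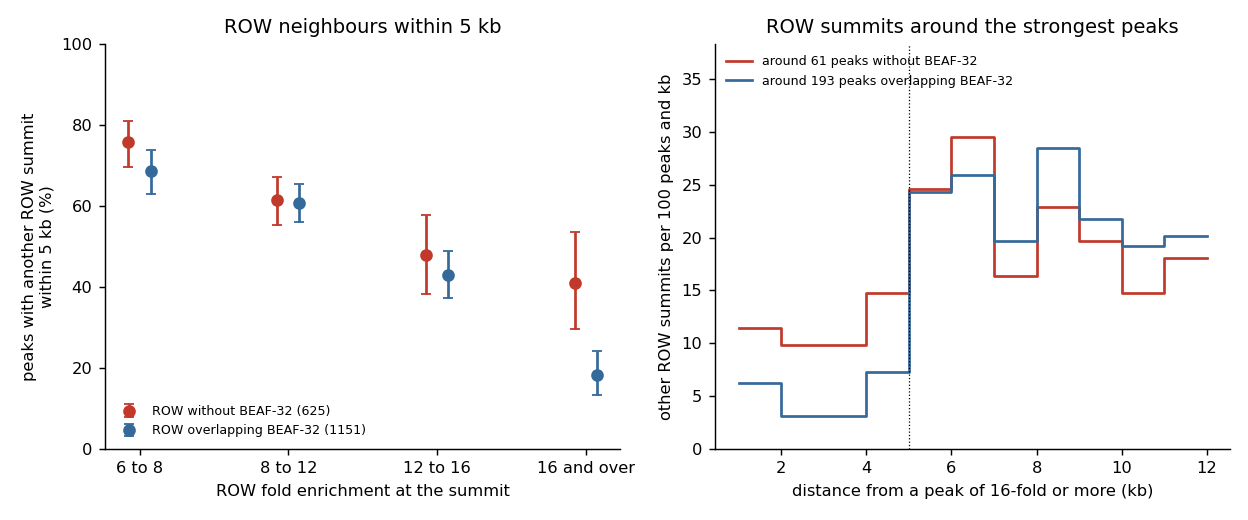
Left, share of peaks with another ROW summit within 5 kb (points, with 95% Wilson intervals) by class of fold enrichment. Right, other ROW summits per 100 peaks in each kb of distance from peaks of 16-fold and over, where both curves rise at 5 kb, from 14.8 to 24.6 around the 61 members and from 7.25 to 24.4 around the 193 overlapping peaks.

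The ROW peaks next to members were divided among the classes much as the whole list was. The nearest other ROW peak was a weaker peak without BEAF-32 for 264 of 625 members (42.2%, 38.4 to 46.1), and such peaks made up 41.2% of the 5115 ROW peaks on these arms. It overlapped BEAF-32 for 277 members (44.3%), a strong peak for 122 and a weaker one for 155, against 44.3% of all ROW peaks on these arms. It was another member for 64 (10.2%, 8.10 to 12.9), against a share of 12.2% of the list. For overlapping peaks the nearest ROW peak overlapped BEAF-32 in 583 of 1151 cases (50.7%), was a weaker peak without BEAF-32 in 34.8%, and was a member in 132 cases (11.5%, 9.75 to 13.4).

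Members stood mostly on their own. The nearest other member was a median of 31046 bp away, and the nearest member to an overlapping peak 31391 bp. The nearest ROW peak of at least 6-fold of any kind lay at a median of 10700 bp (9600 to 11672) from members and 9400 bp (8854 to 9948) from overlapping peaks. One stood within 10 kb of 294 members (47.0%, 43.2 to 51.0) and of 614 overlapping peaks (53.3%, 50.5 to 56.2). This share was lower for members in all 4 classes of enrichment. It was 54.7% against 62.5% at 6 to 8-fold and 49.2% against 52.7% at 8 to 12-fold. At 12 to 16-fold it was 34.4% against 51.3%, and at 16-fold and over 31.1% against 44.6%. The counting intervals overlapped in every class except 12 to 16-fold. Strong ROW neighbours within 10 kb were thus less frequent around members. ROW neighbours of any strength were more frequent around members within 5 kb, but not within 10 kb (85.6% against 87.1%). When members up to 10 kb apart were joined, 504 stayed single, 53 runs held 2 and 5 runs held 3, so that 121 members (19.4%, 16.5 to 22.6) had a partner. Another member within 10 kb was about as frequent for overlapping peaks, at 231 of 1151 (20.1%, 17.9 to 22.5). Members of 6 to 8-fold had one more often (24.8%, 19.5 to 31.0) than those of 16-fold and over (13.1%, 6.80 to 23.8), with intervals that overlap.

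The largest runs held 3 members each. In the run with the highest summed enrichment, on 3L, the peaks from 11054170 to 11054738 (11.015-fold), from 11057645 to 11058187 (11.87-fold) and from 11062989 to 11063606 (6.27-fold) had summits 3474 and 5242 bp apart. The nearest BEAF-32 summit was 4400 bp from the third of them. The next run, also on 3L, spanned 5463 bp between the peaks starting at 17992603 (11.01-fold, 930 fragments), 17996399 (6.28-fold, 693 fragments) and 17998040 (10.20-fold, 829 fragments). Its members were 7705 to 13168 bp from BEAF-32. The third run, on 2L, spanned 14238 bp between the peaks starting at 18557925, 18566578 and 18572224, at 11.66, 7.51 and 8.24-fold. Backgrounds in the second run were 80.4 to 109.6 fragments and in the third 25.9 to 39.6, so runs occurred at high and at low surrounding signal.

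BEAF-32 was not remote from most members. The nearest BEAF-32 summit lay at a median of 5856 bp (5206 to 6537, interquartile range 2946 to 13431), where the rule allows nothing at or under 1000 bp. For comparison, the nearest BEAF-32 summit beyond 1000 bp was taken for overlapping peaks too, and it lay at a median of 6016 bp (5718 to 6346). For members this is the nearest BEAF-32 site, but for overlapping peaks it is mostly the next one after the site they overlap. The groups are therefore not fully alike in this measure. The groups differed on both sides of these medians. BEAF-32 lay beyond 5 kb for 346 members (55.4%, 51.4 to 59.2) and for 713 overlapping peaks (61.9%, 59.1 to 64.7), so members more often had a BEAF-32 summit between 1 and 5 kb. At long range the order turned. No BEAF-32 summit other than one within 1000 bp was found within 20 kb of 105 members (16.8%, 14.1 to 19.9) and of 114 overlapping peaks (9.90%, 8.31 to 11.8). Beyond 50 kb there were 37 members (5.92%, 4.33 to 8.05) and 20 overlapping peaks (1.74%, 1.13 to 2.67).

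**Figure D4:**
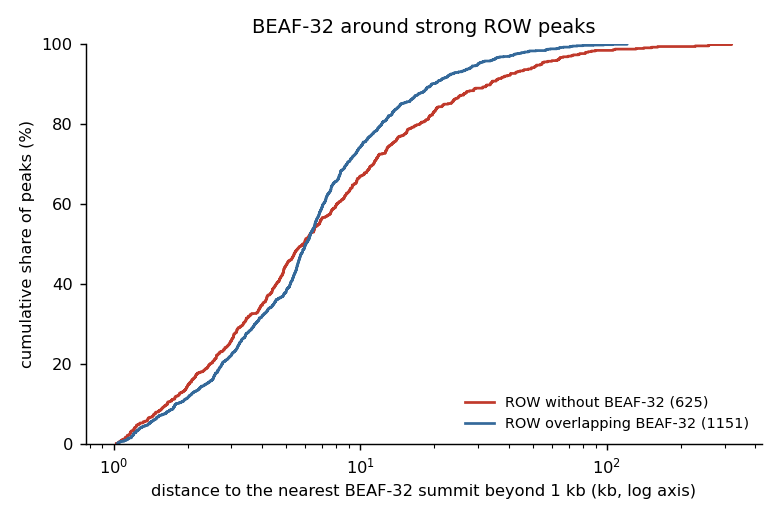
Cumulative share of peaks against the distance to the nearest BEAF-32 summit beyond 1 kb (log axis), for members and overlapping peaks. The curves cross near their medians of 5856 and 6016 bp, and 16.8% of members against 9.90% of overlapping peaks lie beyond 20 kb.

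The BEAF-32 peaks nearest to members were ROW sites themselves in most cases. For 438 of 625 members the nearest BEAF-32 peak overlapped a ROW peak (70.1%, 66.4 to 73.5). For overlapping peaks, beyond 1000 bp, it did so in 905 of 1151 cases (78.6%, 76.2 to 80.9). A BEAF-32 peak nearest to several ROW peaks is counted once for each of them. Of all 2767 BEAF-32 peaks on these arms, each counted once, 82.8% overlapped ROW. For 226 members (36.2%, 32.5 to 40.0) the nearest ROW peak and the nearest BEAF-32 peak overlapped each other, so that the first neighbour on either list was the same site. Their distances to the ROW and to the BEAF-32 summit differed by a median of 85 bp. Of the 10 strongest members, 6 had such a neighbour, and of the 61 members of 16-fold and over, 23 had one (37.7%, 26.6 to 50.3). No matching share was computed for overlapping peaks, so this is not shown to be particular to members. The strongest had BEAF-32 at 7597 bp and ROW at 7717 bp, and the peak on 3L from 10630791 to 10631416 had them at 6869 and 6874 bp.

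ROW and BEAF-32 enrichment at those neighbouring sites can be set beside the rest of the list. Members had to reach 6-fold and their neighbours did not, so the neighbours are not compared with the members. The 226 neighbours were 221 distinct ROW peaks with a median ROW enrichment of 5.04-fold (4.51 to 5.71), and 131 of the 226 were under 6-fold. All 2267 ROW peaks that overlapped BEAF-32 on these arms had a median of 6.10-fold (5.81 to 6.43). The BEAF-32 peaks at the neighbouring sites had a median BEAF-32 enrichment of 13.8-fold (9.55 to 17.5), against 8.74-fold (7.84 to 9.34) for the BEAF-32 peaks nearest to all those 2267 ROW peaks. For the nearest ROW neighbours of overlapping peaks that overlapped BEAF-32 in turn, 583 in number, the median ROW enrichment was 5.62-fold and the median BEAF-32 enrichment 8.83-fold. The 226 had to overlap the BEAF-32 peak nearest to the member, and the 583 and 2267 any BEAF-32 peak, so these sets are unlike. The BEAF-32 peak nearest to all 625 members had a median of 9.13-fold (7.88 to 11.2). For overlapping peaks, beyond 1000 bp, it was 7.60-fold (6.90 to 8.63). Levels of the antibodies are not compared with each other, since each list has its own scale.

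**Figure D5:**
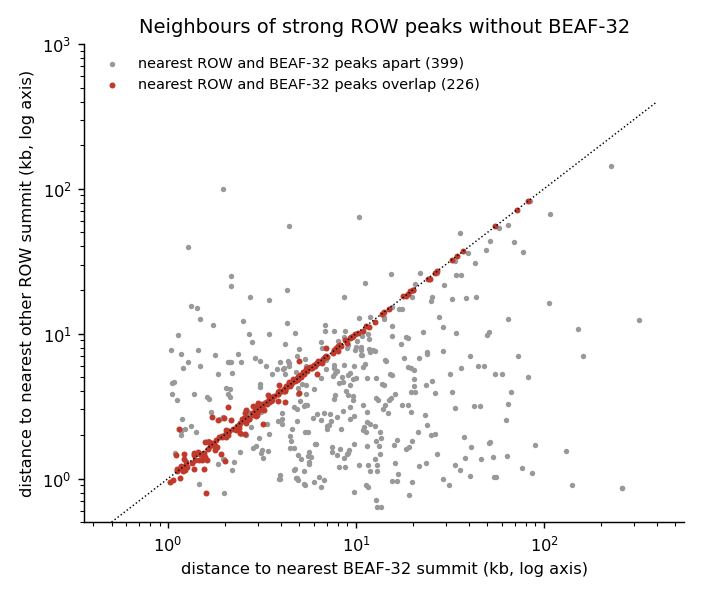
Distance from each member to the nearest other ROW summit against its distance to the nearest BEAF-32 summit, both in kb on log axes. The 226 members whose nearest ROW and BEAF-32 peaks overlap lie along the dotted line of equal distances by construction, and the other 399 scatter to both sides.

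Members were also grouped by their distance from BEAF-32. There were 92 members at 1 to 2 kb (14.7%), 187 at 2 to 5 kb (29.9%), 139 at 5 to 10 kb (22.2%) and 102 at 10 to 20 kb (16.3%). A further 68 lay at 20 to 50 kb (10.9%) and 37 beyond 50 kb. Median enrichment stayed between 8.84 and 9.81-fold in all 6 classes, and median width between 626 and 652.5 bp. The share of members of 16-fold and over was 6.52% at 1 to 2 kb, 9.63% at 2 to 5 kb, 11.5% at 5 to 10 kb, 9.80% at 10 to 20 kb and 5.88% at 20 to 50 kb. Beyond 50 kb it was 18.9%, or 7 of 37 members. The rank correlation of enrichment with distance was 0.04 over the 625 members. Pileup and background moved together: both were highest at 1 to 2 kb, with medians of 519 and 51.0 fragments, and at 20 to 50 kb the medians were 304.5 and 24.8 fragments.

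Close to BEAF-32, members also had close ROW neighbours. Another ROW summit stood within 5 kb of 77 of 92 members at 1 to 2 kb (83.7%, 74.8 to 89.9) and of 151 of 187 at 2 to 5 kb (80.7%, 74.5 to 85.8). The share was 46.0% (38.0 to 54.3) at 5 to 10 kb, 52.0% (42.4 to 61.4) at 10 to 20 kb, 39.7% (28.9 to 51.6) at 20 to 50 kb and 45.9% (31.0 to 61.6) beyond 50 kb, with no steady fall past 5 kb. The neighbouring ROW peak was the one on the nearest BEAF-32 site for 57.6% of members at 1 to 2 kb, 53.5% at 2 to 5 kb and 11.8% at 10 to 20 kb. Of all BEAF-32 peaks on these arms 82.8% overlapped ROW, so a BEAF-32 summit within 5 kb mostly brings a ROW summit with it. The drop at 5 kb is therefore partly built into the comparison, which uses 5 kb for both distances.

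The 3 members farthest from BEAF-32 shared 1 interval. On 2L no BEAF-32 peak had its summit between 14355104 and 15009929, a stretch of 654825 bp with 17 ROW peaks, of which 5 were members. The peak from 14689206 to 14689790 reached 20.26-fold from 871 fragments at 320400 bp from any BEAF-32 summit, the largest distance of all members. The pair from 14613462 to 14614045 (7.60-fold) and from 14614365 to 14615464 (6.92-fold) had summits 864 bp apart, the closest pair of members. The remaining 2 members of the interval lay near its ends, 4019 and 2332 bp from BEAF-32.

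Some members had neither protein nearby. In 32 members (5.12%) no other ROW summit and no BEAF-32 summit lay within 20 kb, and 18 of the 32 stood on the lowest background of the list. Their median enrichment was 10.2-fold and the highest 20.8-fold. The 3 members farthest from any other ROW summit were the peak on 2L from 15498890 to 15500909 at 144409 bp, a peak on 3R from 8047138 to 8047995 (14.16-fold) at 100251 bp, and a peak on 3R from 9375192 to 9375628 (6.03-fold) at 82609 bp. The second of these had a BEAF-32 summit only 1963 bp away, so distance from ROW and distance from BEAF-32 did not always go together.

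Seen from BEAF-32, members lay in intervals between its summits, where a longer interval has more room to hold one. The 3 arms held 2764 such intervals with a median of 9681.5 bp. Members were found in 497 of them, which had a median of 29974 bp, and 405 of the 497 held a single member. Per Mb, however, members were densest in intervals of 10 to 20 kb, at 17.4 per Mb, with 11.2 in those of 2 to 10 kb and 11.9 in those of 20 to 50 kb. Intervals over 50 kb made up 46.4 Mb and held 249 members, or 5.37 per Mb, so the longest stretches without BEAF-32 were comparatively poor in strong ROW sites. The parts of an interval within 1000 bp of its ends cannot hold a member, which lowers the density of short intervals.

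The arms were alike in the density, strength and width of members and less so in their spacing. Members numbered 198 on 2L (8.61 per Mb), 210 on 3L (8.57) and 217 on 3R (7.79). They were 35.9% (32.0 to 40.0), 38.0% (34.0 to 42.1) and 31.3% (28.0 to 34.9) of the strong ROW peaks, the lowest share being on 3R, where overlapping peaks were densest (16.8 per Mb against 15.1 and 13.8). Median enrichment was 9.39, 9.23 and 9.21-fold, and the median width 652, 626 and 646 bp. The median distance to BEAF-32 was 6679, 5989 and 4897 bp, in the reverse order of the density of BEAF-32 peaks (35.0, 36.9 and 38.0 per Mb). The share of members with another member within 10 kb was 25.3% (19.7 to 31.7) on 2L, 19.5% (14.7 to 25.4) on 3L and 13.8% (9.86 to 19.0) on 3R. Members within 10 kb of each other always count together, so these intervals are too narrow to set the arms apart. A ROW summit within 5 kb was found for 57.6% of members and 53.2% of overlapping peaks on 2L, for 64.3% and 47.9% on 3L, and for 64.5% and 52.2% on 3R.

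Along the arms members and overlapping peaks were counted in windows. In 73 full windows of 1 Mb there were 0 to 15 members with a median of 10, and 1 window had none. Overlapping peaks ranged from 1 to 36 with a median of 14. The variance of the number per window was 1.32 times its mean for members and 2.84 times for overlapping peaks. This ratio tends to rise with the number of peaks, and overlapping peaks were more numerous. It therefore does not by itself show that members were spread more evenly. Windows rich in one were not clearly rich in the other (Spearman's rho 0.18 over 73 windows, which share the same lists), and 9 windows held more members than overlapping peaks.

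Enrichment and distance just inside and just outside the limits of the rule lay close together. The weakest members lay on 3L from 2578663 to 2579125, on 3R from 890695 to 891129 and on 2L from 8087155 to 8088115, at 6.002, 6.005 and 6.006-fold. The 3 strongest peaks below the floor that otherwise met the rule all had 5.99-fold and 140 fragments over the lowest background. Members nearest to the distance limit had BEAF-32 summits at 1026, 1041 and 1050 bp, on 3L. Strong peaks just within it, on 2L and 3R, had them at 995, 967 and 954 bp. The 2108 weaker ROW peaks without BEAF-32 had a median width of 434 bp and a median distance to the next ROW summit of 3248 bp.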

How the data were processed

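ROW and BEAF-32 ChIP was done on 3 samples each, and 1 peak list per antibody was used. Bowtie2, SAMtools, MACS2, deepTools and build dm3 are named without roles in the submitters' processing notes. Pooling and the control library are not given in the sources used here. Column 7 of the lists the authors deposited was read as fold enrichment at the summit, and columns 8 and 9 as deposited as −log10 p and −log10 q. The summit is the start plus column 10.

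Pileup k and background b were solved from fold = (k + 1)/(b + 1) and the Poisson chance of more than k fragments, with no further scaling. All pileups of both lists came out within 0.01 of whole numbers, which is how the depth behind a peak is known. They count fragments at 1 base, and duplicates may be among them. The depth of a sample is not known.

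Distances are between summits. Shares have 95% Wilson intervals and medians have 95% order-statistic intervals. The scripts were tested on simulated data. No test was planned or run, because the lists hold no value per sample. Members, comparison group and lists were chosen with earlier results of these data known. Named peaks are the 10 strongest, the 3 widest, narrowest and most isolated, the 3 largest runs and those at the edges of the rule. The pair of peaks and the interval on 2L were singled out after their values were seen. Python 3.11.15, numpy 2.4.6, pandas 2.3.3, scipy 1.17.1 and matplotlib 3.10.9 were used.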

Additional observations from a re-analysis of the deposited data

Results flagged for a closer look

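Sequences outside the arms compared also carried peaks that met the same rule. On the heterochromatic pieces, the unplaced scaffolds and the mitochondrial sequence, 42 of 121 ROW peaks of at least 6-fold (34.7%) had no BEAF-32 overlap and no BEAF-32 summit within 1000 bp. Most of the 42 lay on the unplaced scaffolds, with 9 of 31 such peaks on U and 29 of 56 on Uextra. On 2R, 4 and X there were 412 of 1071 (38.5%). They were 170 of 527 on 2R, 5 of 34 on 4 and 237 of 510 on X, so the pooled shares cover unlike sequences. Whether reads on the unplaced sequences are unique was not tested.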

How the results depend on the processing

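No paired analysis was possible because the 3 samples of an antibody have a single peak list between them, which also leaves no sample to omit. Over 115 recalculations of 10 main values, 69 stayed within the counting interval of the value reported and 46 moved out of it. Of these recalculations, 5 used only ROW peaks of 500 to 800 bp and were chosen after seeing the data. In all 14 settings, the main one included, members were narrower and more often had a ROW summit within 5 kb than overlapping peaks. Not all of these settings bear on width. The setting of 4-fold neighbours cannot change it, and the limits of 500 and 2000 bp leave the overlapping peaks as they were. The setting of 500 to 800 bp selects on width itself. The median distance to the nearest ROW summit was shorter for members in 13 of 14. With ROW neighbours of at least 4-fold it was 7023 bp for members against 6989 bp for overlapping peaks. The shares within 5 kb were then 32.3% and 29.9%, and 56.2% of members had a neighbour on BEAF-32. Of all ROW peaks on these arms 44.3% overlapped BEAF-32, and of those of at least 6-fold 64.1%. The share at 4-fold and over was not computed, so the 56.2% is not shown to be particular to members. The causes were not tested.

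The share of strong peaks that were members was 31.6% at a floor of 8-fold, 29.7% with no BEAF-32 summit within 2000 bp, 41.5% with BEAF-32 peaks of −log10 q of at least 10, 38.0% on 3L and 31.3% on 3R. The share of members in runs was 27.4% and 9.73% at floors of 5 and 8-fold, 27.0% by rank of −log10 q, 22.7% with the stricter BEAF-32 list, 25.3% on 2L and 13.8% on 3R. It was 7.20% for runs joined at 5 kb and 38.9% at 20 kb. Longer joins and more members raise it by construction.

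The median distance from members to ROW was 4449 bp at 8-fold, 3207 bp by −log10 q, 4120 bp with the limit of 2000 bp and 4077 bp on 2L. For overlapping peaks it was 5389 bp at 8-fold, 4337 bp by −log10 q, 4186 bp when weighted to the members' classes and 4036 bp for peaks of 500 to 800 bp. The share of members with ROW within 5 kb was 55.2% at 8-fold, 68.7% by −log10 q and 57.6% on 2L. That of overlapping peaks was 54.2% and 45.8% at 5 and 8-fold, 55.4% by −log10 q, 47.9% on 3L, 56.6% weighted and 58.2% at 500 to 800 bp.

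The median distance from members to BEAF-32 was 4891 bp by −log10 q, 7489 bp with the limit of 2000 bp, 6855 bp with the stricter list, 6679 bp on 2L and 4897 bp on 3R. The share whose nearest ROW peak overlapped BEAF-32 was 38.5% with the limit of 2000 bp, 39.7% with the stricter list, 37.5% with an overlap of 50% and 48.4% on 3R. The median width of overlapping peaks was 706 bp with that overlap and 751.5 bp on 3L. Sequence and annotation were not analysed here, for lack of a dm3 genome.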
